A study of Gallus gallus with 20 samples.

Results

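Genes that carry out vitamin D metabolism and distal calcium handling were measured in 1 RNA-seq library of adult chicken (Gallus gallus) kidney. The genes were chosen by name: CALB1, TRPV6, TRPM6, SLC8A1, ATP2B1, CYP24A1, VDR, CASR, PTH1R and KL. Of these 10 genes, 9 had at least 1 row carrying their symbol, out of 19650 genes with a row in all. CASR, the calcium-sensing receptor, had no row under that symbol and was not analysed here. The series holds 20 samples of chicken kidney and testis, of which 19 are small RNA libraries that were not analysed here. The kidney library was labelled adult, with no sex, strain, treatment or number of animals given and without replicates, so no difference between samples could be tested. Its table held 21832272 estimated reads.

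Calcium that escapes reabsorption earlier in the nephron is recovered in the distal tubule by passing through the cells. It enters from the urine through a TRPV channel, is carried across the cell by the binding protein calbindin, and leaves on the blood side through a sodium-calcium exchanger and a calcium pump. Active vitamin D, acting on its nuclear receptor, and parathyroid hormone, acting on a surface receptor, raise this transport. Klotho is the co-receptor that lets the bone hormone FGF23 act on the kidney, and CYP24A1 breaks active vitamin D down.

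Transcripts of every measured gene of this group were detected. Calbindin, CYP24A1 and the parathyroid hormone receptor stood above 100 TPM, Salmon's measure of relative transcript number, which allows for transcript length. The channels, exchanger, pump and VDR stood between 18.5 and 36.9 TPM, with KL above them. All 9 measured members passed the detection threshold of 1 TPM with at least 3 reads, which 51.4% of all genes with a row and 70.5% of genes with a symbol also passed. All 9 also stood at 10 TPM or more, a level reached by 27.6% of all genes and 40.3% of genes with a symbol. At 100 TPM or more there were 3 of 9 members, against 3.11% of all genes and 4.38% of genes with a symbol. KL crossed this level with annotated length (114 TPM) and in both rescalings (103 TPM each), which made it 4 of 9, against 4.87% to 4.95% of all genes. These genes were listed for known work in the kidney, so such shares describe the list and test nothing. The members' median was 36.9 TPM, against 1.21 TPM over all genes, 6.04 TPM over the 12681 genes with a symbol and 11.2 TPM over detected genes. With rows of non-coding accessions left out, the median over all genes was 4.76 TPM, and the members' median was 7.75 times it instead of 30.5 times. Together the members held 45405 reads, 0.208% of the library (exact Clopper-Pearson 95% interval 0.206 to 0.210). In whole tissue a level reflects both how many cells make a transcript and how much each makes, which cannot be told apart here.

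**Figure D1:**
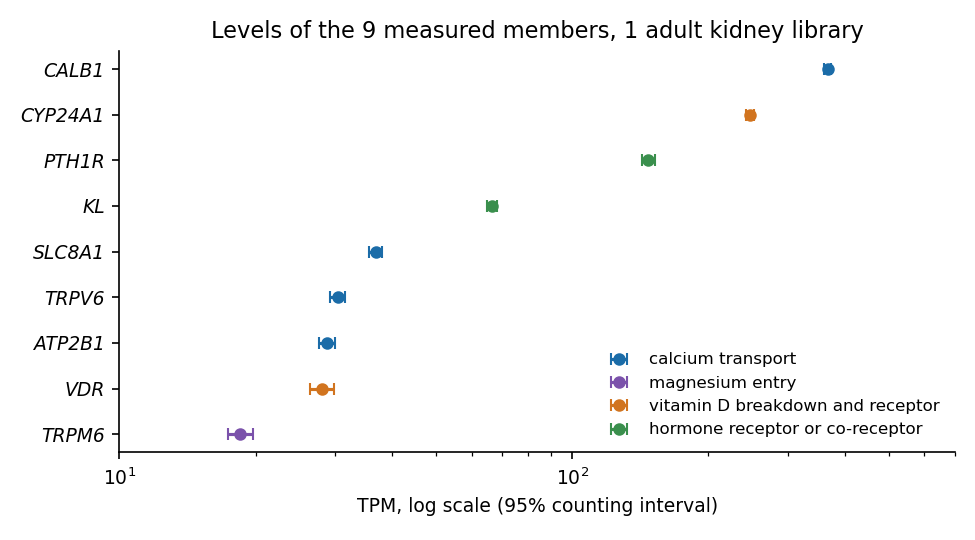
Levels of the 9 measured members in TPM on a log scale, 1 point per gene, coloured by role, with exact Poisson 95% intervals of the reads as bars. CALB1 at 366 TPM and TRPM6 at 18.5 TPM are the ends of the order, and the bars of TRPV6, ATP2B1 and VDR overlap.

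The calcium-binding protein CALB1 was the member with the most transcripts. It stood at 366 TPM from 15111 reads, with an interval of 361 to 372 TPM. Intervals of levels and ratios in this text are exact 95% intervals that cover counting error alone. CALB1 ranked 149th of the 19650 genes and held 37.8% of the TPM of the 9 members. Its single row, NM_205513, is 2804 bases long and lies on the minus strand. CALB1 was 12.1-fold (11.6 to 12.6) above the entry channel TRPV6, 9.94-fold (9.59 to 10.3) above the exchanger SLC8A1 and 12.8-fold (12.2 to 13.3) above the pump ATP2B1. The binding protein therefore stood about an order of magnitude above each of these transporters in transcript level over the whole kidney. Whether the same cells made these transcripts was not tested. With only the most abundant row of each gene, CALB1 stayed at 366 TPM and SLC8A1 stood at 18.7 TPM, a wider distance.

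TRPV6, the calcium channel of the luminal membrane, stood at 30.3 TPM (29.2 to 31.5) from 2865 reads. On the blood side, SLC8A1, which exchanges sodium for calcium, stood at 36.9 TPM (35.7 to 38.1) from 3603 reads. ATP2B1, a calcium pump of the plasma membrane, stood at 28.7 TPM (27.5 to 30.0) from 2170 reads. With all rows of each gene summed, the 3 transporters thus lay within a narrow band. SLC8A1 was 1.21-fold (1.16 to 1.28) above TRPV6 and 1.28-fold (1.22 to 1.35) above ATP2B1. The ratio of TRPV6 to ATP2B1 was 1.06 (0.999 to 1.12), an interval that includes 1. These intervals leave out error in how reads were divided among a gene's rows. With only the most abundant row of each gene, SLC8A1 stood at 18.7 TPM, below TRPV6 at 24.8 TPM and ATP2B1 at 28.7 TPM. With all rows, SLC8A1 and ATP2B1 together summed to 65.6 TPM, against 30.3 TPM for TRPV6. The related pump ATP2B4, at 15.5 TPM, is not in that sum, and the channel TRPV5 had no row. These whole-kidney values therefore give no balance of exit and entry.

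TRPM6, the magnesium channel of the distal tubule, had the lowest level of the 9 at 18.5 TPM (17.4 to 19.7) from 992 reads. It still stood above 82.2% of all genes and 65.5% of detected genes. VDR exceeded TRPM6 1.51-fold (1.39 to 1.65), so the place of TRPM6 at the end of the order lies outside counting error. That place rests on summing all rows of a gene. With only the most abundant row of each gene, TRPM6 at 17.0 TPM stood above VDR at 13.2 TPM. The 3 rows of TRPM6 are predicted transcripts of 2746 to 3650 bases, and whether they hold the whole transcript was not tested. Reads from any part outside these rows are not in its level.

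CYP24A1, the enzyme that inactivates vitamin D, was the second highest member at 247 TPM (242 to 252) from 9963 reads, and ranked 225th of all genes. It stood on 1 row of 2744 bases. VDR, the nuclear receptor through which active vitamin D controls genes, stood at 28.0 TPM (26.3 to 29.7) from 1062 reads. CYP24A1 was 8.83-fold (8.30 to 9.43) above VDR. CALB1 and CYP24A1, both known target genes of VDR, held 63.3% of the members' TPM together. CYP27B1, which makes the active hormone and would be the natural partner for CYP24A1, had no row under its symbol and was not analysed here.

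PTH1R, the receptor for parathyroid hormone, stood at 147 TPM (143 to 152) from 3639 reads and ranked 418th. Its row, NM_001177575, is the shortest among the single-row members at 1760 bases. The same accession carries the symbol PTH2R with PTH1R as a synonym in the later GRCg7b gene table, so the value belongs to that transcript whichever name is used. In that table the gene overlaps LOC101752077, a long non-coding RNA whose rows lie on the opposite strand and stood at 11.8 TPM from 839 reads. The strand setting of the counting is not given in the sources used here, so reads where these genes overlap cannot be assigned with certainty. KL, which encodes klotho, stood at 66.6 TPM (64.9 to 68.3) from 6000 reads on 1 row of 5895 bases. By reads alone KL exceeded PTH1R, but per length PTH1R was 2.21-fold (2.12 to 2.31) above KL.

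In descending order the members were CALB1, CYP24A1, PTH1R, KL, SLC8A1, TRPV6, ATP2B1, VDR and TRPM6. Of the 8 ratios between neighbours in that order, 6 had intervals that left out 1. The exceptions were TRPV6 over ATP2B1, given above, and ATP2B1 over VDR at 1.03 (0.953 to 1.11). The order of TRPV6, ATP2B1 and VDR among themselves was therefore close to what counting error allows, although TRPV6 over VDR was 1.08 (1.01 to 1.16). The same order was found with annotated in place of effective length. Both rescalings multiply every member's level alike, so they could not change the order. With the most abundant row alone, SLC8A1 stood at 18.7 TPM, behind ATP2B1 and TRPV6 at 28.7 and 24.8 TPM, and VDR stood at 13.2 TPM, behind TRPM6 at 17.0 TPM.

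**Figure D2:**
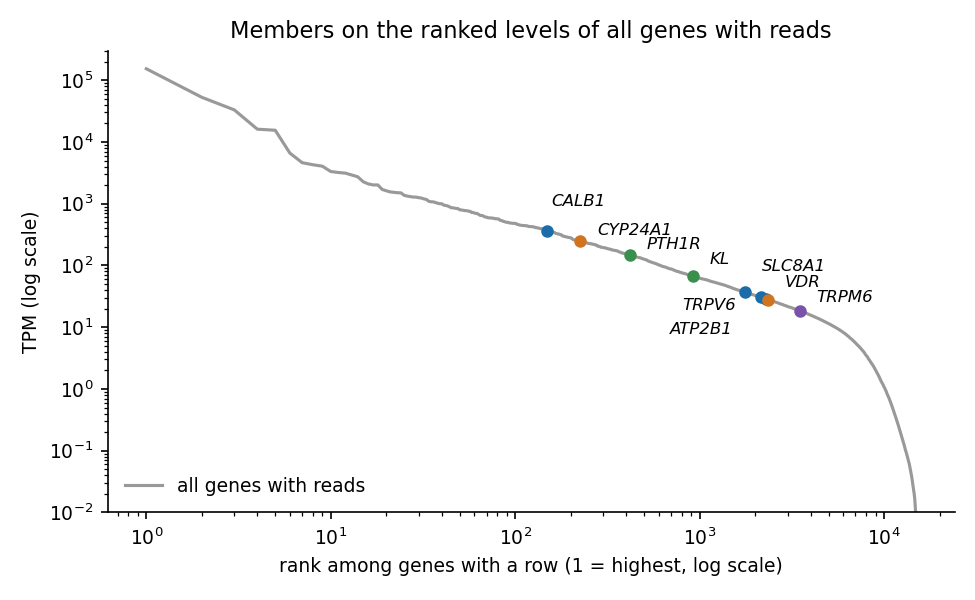
TPM of all genes with reads (grey line) against rank, both on log scales, with the 9 members marked as coloured points. CALB1 at rank 149 and CYP24A1 at rank 225 lie far up the curve, and TRPM6 at rank 3495 is the lowest placed.

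The members' values came from 32 transcript rows, 6 with curated (NM) and 26 with predicted (XM) RefSeq accessions, and none non-coding. CALB1, CYP24A1, PTH1R, KL and ATP2B1 had 1 row each, so no transcript share could be computed for these 5 genes. The other 4 members had several rows. Of the 32 rows, 22 had reads, and none of the 22 had a whole number of reads within 0.0005, while 56.6% of all rows with reads in the table had no whole number. Such fractions arise where Salmon divides reads among rows, and single-row members also had them, so part of their reads was divided with rows of other names.

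SLC8A1 had 16 rows of 2924 to 15076 bases, and its reads fell mainly on a pair of them. The curated row of 2924 bases stood at 18.7 TPM from 805 reads, and a predicted row of 9609 bases at 17.0 TPM from 2527 reads. The short row thus held 50.6% of the gene's TPM but 22.3% (21.0 to 23.7) of its reads, while the row of 9609 bases held 46.0% of TPM and 70.1% (68.6 to 71.6) of reads. The ratio of the short to the long row was 1.10 (1.01 to 1.19) in TPM and 0.319 in reads, which do not allow for length. The interval leaves out error in how Salmon divided reads between these rows, so which transcript leads was not settled. The 13 rows longer than 10000 bases shared 244 reads, 6.76% of the gene's reads and 2.83% of its TPM. Of those 13 rows, which are 14950 to 15076 bases long, 10 had no reads.

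VDR had the most even spread. All 6 of its rows had reads, and 4 stood at 1 TPM or more. The curated row of 2475 bases, NM_205098, stood at 13.2 TPM and held 47.1% of the gene's TPM and 44.8% (41.8 to 47.9) of its reads. A predicted row of 2851 bases stood at 8.19 TPM and held 29.2% of TPM and 32.4% (29.6 to 35.3) of reads. The curated row was 1.61-fold (1.40 to 1.86) above it in TPM. Rows of 2401, 2696, 2507 and 2515 bases followed with 11.6%, 7.62%, 3.28% and 1.07% of TPM. As these 6 rows differ little in length, shares of TPM and of reads were close for each.

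TRPM6 and TRPV6 each had 1 leading transcript. In TRPM6 a predicted row of 3650 bases stood at 17.0 TPM and held 91.9% of TPM and 93.6% of reads, against 0.945 TPM and 0.557 TPM for rows of 2986 and 2746 bases. In TRPV6 the row of 6139 bases stood at 24.8 TPM from 2332 reads, and the row of 6277 bases at 5.54 TPM from 533 reads. The shorter TRPV6 row held 81.8% of TPM and 81.4% (79.9 to 82.8) of reads and was 4.48-fold (4.07 to 4.93) above the other.

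**Figure D3:**
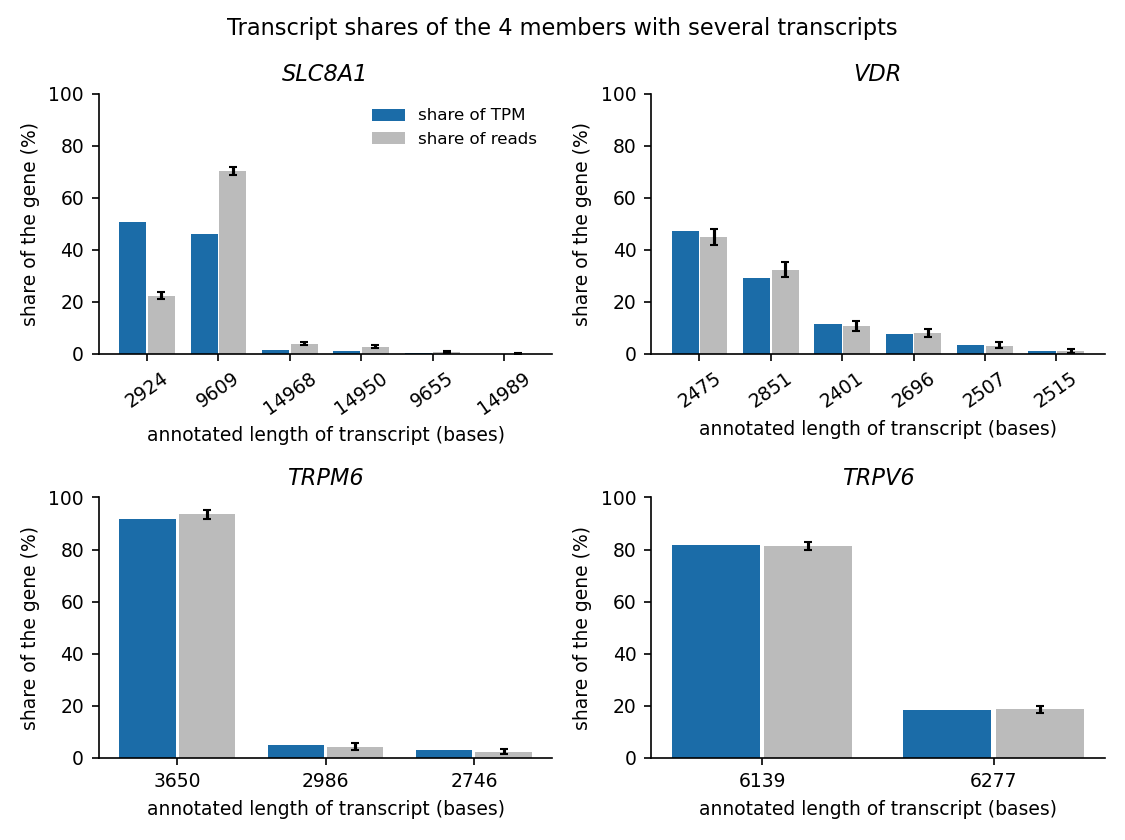
Shares of each gene's TPM (blue) and reads (grey, with exact binomial 95% intervals) held by its transcripts with reads, labelled by annotated length, for SLC8A1, VDR, TRPM6 and TRPV6. In SLC8A1 the transcript of 2924 bases has 50.6% of TPM and 22.3% of reads, and in the other 3 genes both shares are close.

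Close relatives of several members had a row, and some of them were hardly represented. SLC8A1 held 97.5% of the TPM of the 3 measured sodium-calcium exchanger genes. SLC8A3 stood at 0.928 TPM from 188 reads, and SLC8A1 was 39.7-fold (34.3 to 46.3) above it. SLC8A2 had 1 read, which puts SLC8A1 1971-fold above it with a wide interval of 354 to 77889. CALB2, the gene of the related protein calretinin, drew no reads. With 3 reads, equal to 0.211 TPM, taken as its limit, CALB1 was at least 1739-fold higher. KL was 1229-fold (526 to 3787) above KLB, the co-receptor for other hormones of the FGF family, which had 5 reads.

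Among calcium pumps and TRPM channels the relatives were closer. ATP2B1 held 63.5% of the TPM of the 3 measured pump genes and was 1.85-fold (1.74 to 1.97) above ATP2B4, which stood at 15.5 TPM from 2024 reads. ATP2B2 stood at 0.982 TPM, and ATP2B1 was 29.3-fold (25.3 to 34.0) above it. TRPM6 was 0.855 times (0.794 to 0.921) the level of TRPM7, a related magnesium channel found in most tissues, which stood at 21.6 TPM from 2403 reads. VDR was 0.704 times (0.656 to 0.754) the level of RXRA, the partner with which it binds DNA, at 39.8 TPM. RXRG had 3 reads, and VDR was 244-fold (83.2 to 1184) above it. TRPV5, ATP2B3, RXRB and PTH2R had no row of their own symbol and were not analysed here. As the PTH1R row is named PTH2R in the later gene table, PTH1R and PTH2R were not told apart.

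**Figure D4:**
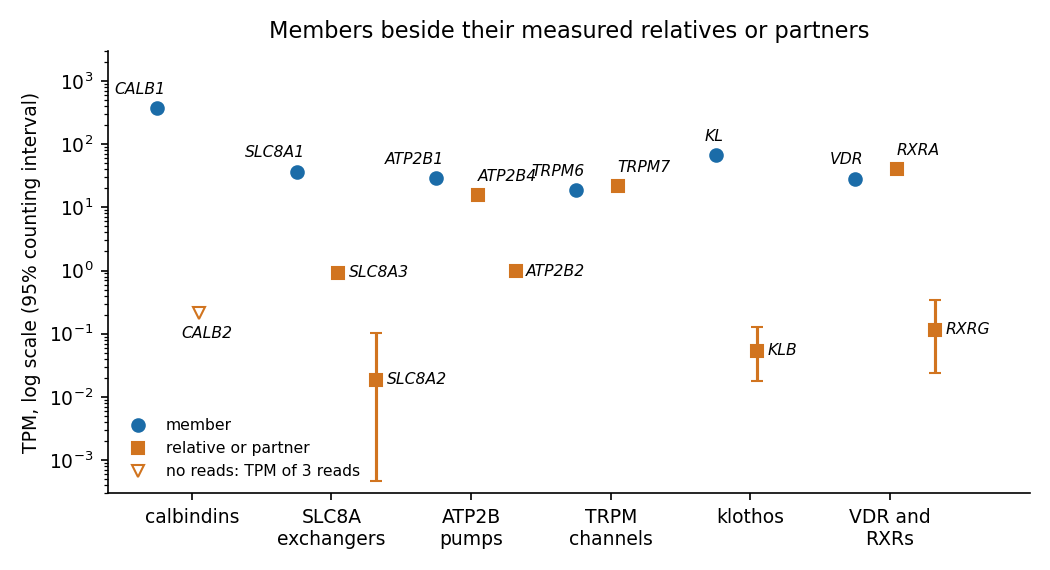
TPM on a log scale of 6 members (blue circles) beside their measured relatives or partners (orange squares), with exact Poisson 95% intervals. CALB2, without reads, is drawn as an open triangle at the TPM of 3 reads, and TRPM6 and VDR are the members that lie below a relative or partner.

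Other genes of the same pathways were read from 7 lists, some of whose genes are members. With members counted, shares detected ran from 72.7% to 90.9% of the genes with a row, against 70.5% of all genes with a symbol. Without members, 8 of 9 vitamin D, 7 of 11 transcellular calcium, 12 of 14 magnesium and 7 of 8 calcium sensing genes were detected. The remaining counts were 7 of 10 for parathyroid hormone, 7 of 9 for klotho and FGF23, and 5 of 6 for other calcium hormones. List medians also count members. Without them the transcellular calcium median was 15.8 TPM and the klotho median 20.2 TPM. Of the vitamin D list, 11 of 16 genes had a row and 10 were detected, with a median of 33.2 TPM. Its highest genes outside the members were LRP2 at 998 TPM and DAB2 at 241 TPM, an uptake receptor for vitamin D bound to its carrier protein and an adaptor of that receptor. Of the transcellular calcium list, 15 of 18 genes had a row and 11 were detected, with a median of 30.3 TPM, and the share of 73.3% was near that of all genes with a symbol. The kinase SGK1 stood at 359 TPM and the calmodulin gene CALM2 at 351 TPM, both at levels close to CALB1. Calmodulin genes have similar sequences, so the division of reads between CALM2 and its copies is uncertain.

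Of the magnesium list, 15 of 18 genes had a row and 13 were detected, with a median of 18.5 TPM, the level of TRPM6 itself. FXYD2, a subunit of the sodium pump, stood at 2088 TPM. EGF, a hormone that activates TRPM6 in mammals, had no reads on its rows. In the list for calcium sensing and the path between cells, to which CASR belongs, 8 of 11 genes had a row and 7 were detected, with a median of 16.1 TPM. CLDN10, a channel between cells, stood at 329 TPM, and the salt transporter SLC12A1 at 250.5 TPM.

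Of the parathyroid hormone list, 11 of 15 genes had a row and 8 were detected, with a median of 30.0 TPM, and the share of 72.7% was likewise near the 70.5% of genes with a symbol. The phosphate transporter SLC34A1, which the hormone restrains, stood at 4055 TPM, and the scaffold gene SLC9A3R1 at 218 TPM. PTH had no reads, and neither did FGF23, the hormone that klotho serves. In the klotho and FGF23 list all 10 genes had a row and 8 were detected, with a median of 29.9 TPM. The phosphate transporters SLC20A1 and SLC20A2 stood at 248 and 108 TPM. The list of other calcium hormones had the lowest median at 2.53 TPM, with 5 of 6 measured genes detected, RAMP2 at 23.8 TPM and STC1 at 18.0 TPM.

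**Figure D5:**
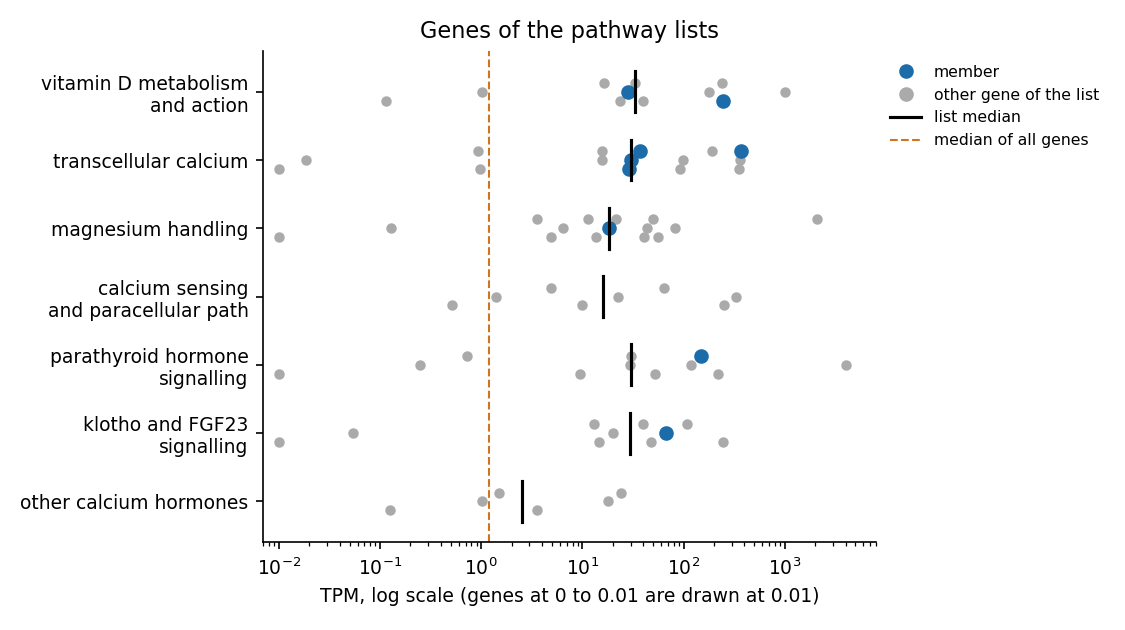
TPM on a log scale of the genes with a row in 7 pathway lists, with members in blue, other genes in grey, a black bar at each list median and a dashed line at the median of all genes, 1.21 TPM. The list medians run from 2.53 TPM for other calcium hormones, below the 6.04 TPM of genes with a symbol, to 33.2 TPM for vitamin D.

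The labelled tissue was checked against markers of nephron segments. Detection alone says little, since 70.5% of all genes with a symbol passed the same threshold. The counts of 3 of 4 and 4 of 5 given below lie near that share. All 5 measured proximal tubule markers were detected, at 998 to 4616 TPM, and all 6 collecting duct markers, at 21.2 to 294 TPM. Of the thick ascending limb markers, 3 of 4 measured genes were detected, and UMOD, the best known protein of that segment in mammals, had no reads. Of the distal tubule markers that are not members, 4 of 5 were detected, with HSD11B2 at 90.2 TPM, SLC12A3 at 64.3 TPM and PVALB without reads. CALB1 thus stood above the sodium-chloride transporter SLC12A3, a marker on the same distal tubule list, and TRPV6, SLC8A1 and TRPM6 below it. Which cells made these transcripts was not tested. None of the 3 measured markers of the parathyroid gland was detected, with PTH and GCM2 at 0 reads and CHGA at 1 read, and the 3 measured markers of bone and cartilage had no reads.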

How the data were processed

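The single table analysed comes from total RNA of adult kidney. Per the labels' protocols, RNA was extracted with a kit that keeps small RNA, and the library followed a TruSeq RNA protocol. Transcript levels were estimated with Salmon on galGal6, per the submitters' processing notes. The sources used here give neither its version nor its library type or strand setting. The deposited estimated counts are reads that Salmon divided among rows, and the deposited TPM values share 1 scale across the 79570 rows. Rows without a gene name held 35.5% of reads, and how many of these belong to the members was not determined.

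A gene's level was the sum of TPM over rows whose name carries its symbol. The exact Poisson interval of each gene's rounded read number was converted to TPM. Shares were given exact Clopper-Pearson intervals, and ratios exact conditional binomial intervals, all at 95%. They cover counting error only: no molecular identifiers mark separate molecules, and the division of shared reads adds error. For genes at 0 reads the limit was set at 3 reads, in TPM. Interval steps were tested on simulated Poisson and binomial counts, which hold no division of shared reads and so test the arithmetic only. The effective length was 198.6 bases below the annotated length in 31 of the 32 member rows. The GRCg7b gene table was used for names and overlaps only, since its build differs. Overlaps were taken from the spans of whole genes in that table, and no coordinates are given in the text. Some member rows were not found in it, among them the only row of CYP24A1 and the leading rows of SLC8A1 and TRPM6. The names of those rows could not be checked there. Every member, its listed relatives with a row and, in each pathway list, the 2 highest other genes and up to 3 genes without reads were named. A gene that this rule names is not reported here. Of the marker lists, genes named singly were chosen after their values were seen. Members and lists were chosen with earlier results of these data known. Alternatives were the most abundant row alone, annotated length, other scalings, removal of non-coding rows and other thresholds. Python 3.11.15, pandas 2.3.3 and scipy 1.17.1 were used.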

Additional observations from a re-analysis of the deposited data

How the results depend on the processing

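All 9 measured members stayed detected under all 9 alternatives, including thresholds of 0.5 and 5 TPM and of 10 reads. Of all genes, 36.8% to 66.6% were detected in the same settings. The lowest member level in any setting was 13.2 TPM, for VDR with the most abundant row alone. No threshold tried could therefore remove a member. The members' median of 36.9 TPM was 28.7 TPM with the most abundant row alone, 62.3 TPM with annotated length, 57.2 TPM scaled over rows with a gene name and 57.1 TPM without rows under 300 bases. By construction, both rescalings raise every member's level alike, by 1.55-fold, as no member has a row under 300 bases. Other genes can lose rows in the second rescaling. There the median over all genes was 2.47 TPM, and the members' median was 23.1 times it. Rows under 300 bases held 0.493% of reads but 35.4% of TPM. Levels set against fixed TPM cutoffs therefore depend on whether these rows are counted. Of 45 alternative values of member levels, 31 lay outside the counting interval of the main value and 14 stayed within it. Those 14 could not change, because no member has a non-coding row and 5 members have 1 row each. They therefore say nothing about how stable the levels are. The members' share of reads was 0.322% of the reads of rows with a gene name and 0.139% of all reads without CALB1. Of 40 alternative values of family ratios, 37 stayed within their counting interval. Both rescalings leave every ratio as it was by construction, and removal of non-coding rows changed none. With the most abundant row alone, ratios between genes of 1 row each could not change either. The other 3 values, all with the most abundant row alone, were SLC8A1 to SLC8A3 at 20.6, VDR to RXRA at 0.332 and TRPM6 to TRPM7 at 0.786. In that setting SLC8A1 to SLC8A2 also fell from 1971 to 998, and VDR to RXRG from 244 to 115. Both stayed within their intervals only because these are wide. Curated rows alone gave no transcript share, since no member has more than 1. No paired analysis was possible because there is 1 library. Depth limits ratios to relatives with few reads, such as SLC8A2.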
